A study of Mus musculus with 8 samples.

Results

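The genes described here encode the proteins of the cytosolic ribosome, in libraries of murine megakaryocytes (MKs, the bone marrow cells that release platelets). Members were the genes whose symbol begins Rpl or Rps followed by a number, together with Rplp0, Rplp1, Rplp2 and Rpsa, leaving out the S6 kinases and named pseudogenes. The rule took 85 of the 13387 genes in the count table, of which 51 belong to the large subunit and 34 to the small subunit. Of these, 77 are canonical ribosomal proteins, 46 of the large and 31 of the small subunit. There were 7 paralogs, namely Rpl3l, Rpl7l1, Rpl22l1, Rpl36al and Rpl39l in the large subunit and Rps27l and Rps27rt in the small subunit. Rps19bp1, a protein that binds RPS19 and is not part of the ribosome, was also taken by its symbol. The canonical genes Fau and Rack1 were not taken by the rule and are described apart.

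Primary MKs of wild-type C57BL/6 mice were cultured alone (4 libraries) or together with wild-type C57BL/6 bone marrow mesenchymal stem cells (MSCs, 4 libraries), and both groups were kept for 18 hours. The MKs had been enriched from marrow by CD41 selection, and the MSCs had been sorted as CD45-Ter119-CD31-CD51+CD140a+ cells. After culture the MKs in suspension were separated from the adherent MSCs by hand, which can leave other cells in both groups. The study's design text describes the sequenced cells as MKs separated from platelets, whereas its methods describe platelets pooled from several wells. The study's methods give a single age range, of young adults, for all of its mice, and the labels give no age for these libraries. Each group is described as coming from 4 mice, with several wells pooled for a sample, but the labels do not tie a library to a mouse or a culture. If the libraries are not separate animals, p-values measure the spread between these libraries, which may be technical.

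A cytosolic ribosome is built from a small subunit, which binds the messenger RNA and decodes it, and a large subunit, which joins the amino acids. Each subunit holds ribosomal RNA and its own set of proteins, most of them essential, and ribosomal proteins that are not assembled are degraded. Their messenger RNAs begin with a terminal oligopyrimidine (TOP) tract, a C followed by a run of pyrimidines, through which mTOR signaling controls their translation. Platelets carry ribosomes and messenger RNA that they receive from the MK. Mutations in several of these genes cause Diamond-Blackfan anemia, and free RPL5 and RPL11 can bind MDM2, the ubiquitin ligase that keeps p53 low.

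Libraries held between 4939874 and 12523616 counts, and values are given as CPM, which set each library to the same size after scaling with edgeR's TMM factors over the 8 libraries. A floor of 3 counts was worth 0.24 to 0.607 CPM before that scaling. Replicate 3 of the cocultures stood apart from the others. It had a count for 10735 genes, against 12406 to 13193 in the other libraries, and its TMM factor was 0.765, against 0.918 to 1.12. MK and platelet markers such as Pf4 were present in every library, with 15 markers summing to 1911 to 2251 CPM in the MKs cultured alone and 1761 to 2361 CPM in the cocultures. Markers of other cells differed between the groups. The 11 neutrophil markers summed to 85088 to 87259 CPM in the MKs cultured alone, to 9705 to 10303 CPM in cocultures 1, 2 and 4 and to 4534 CPM in coculture 3. The 12 MSC markers in the table summed to 197 to 213 CPM in the MKs cultured alone, to 2849 to 3981 CPM in cocultures 1, 2 and 4 and to 1178 CPM in coculture 3. In the MKs cultured alone, the largest parts of this sum were Vcam1 (84.3 to 104 CPM) and Nt5e (62.3 to 87.8 CPM). Nt5e was lower in the cocultures, at 1.05 to 9.67 CPM. Sparc was at 0.103 to 1.10 CPM in the MKs cultured alone and 548 to 1419 CPM in the cocultures, and Col1a1 at 0.103 to 0.662 and 115 to 795 CPM. B-cell markers (9 genes) summed to 886 to 946 CPM in the MKs cultured alone and 91.1 to 236 CPM in the cocultures, and erythroid markers (7 genes) to 33.5 to 54.4 CPM and 16.0 to 93.7 CPM. The 10 macrophage markers in the table summed to 151 to 226 CPM in the MKs cultured alone and 923 to 1421 CPM in the cocultures, and Marco alone among all these markers was at 0 in every library of MKs cultured alone. In such bulk samples, fewer cells of a type and less RNA per cell cannot be told apart, and the part of these cells in the results given here was not tested.

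TOP tracts were looked for in RefSeq promoter sequences (build GRCm38.p6), which matched 65 of the 85 members. A C followed by at least 4 pyrimidines, beginning within 5 bases of an annotated start, was present in 30 of the 65 members (46.2%) and in 21.2% of 27025 genes. The sequences shown are those of genes on which the comparisons turn, each with 15 bases before and 15 bases after an annotated start, read 5′ to 3′ on the strand of the gene and with the tract in capitals. Rps27 and Rps6 are canonical genes that were lower in cocultures 1, 2 and 4, and Rps2, Rpl38, Rpl5, Rps27l and Rpl39l were higher in every coculture.
Rps6, chr4:86857353-86857382, reverse strand: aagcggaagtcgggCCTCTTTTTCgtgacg
Rps27, chr3:90213634-90213663, reverse strand: atttccgctttcgCTCCTTTCCggcggtga
Rps2, chr17:24720048-24720077, forward strand: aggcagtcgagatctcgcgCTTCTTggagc
Rpl38, chr11:114668565-114668594, forward strand: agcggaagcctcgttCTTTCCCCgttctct
Rps27l, chr9:66946071-66946100, forward strand: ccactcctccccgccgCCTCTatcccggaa
Rpl5, chr5:107900513-107900542, forward strand: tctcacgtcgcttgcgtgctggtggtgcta
Rpl39l, chr16:10170213-10170242, forward strand: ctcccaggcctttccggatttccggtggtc
The windows of Rps6, Rps27, Rps2, Rpl38 and Rps27l held a tract, of 10, 9, 6, 8 and 5 bases respectively. Rpl5 and Rpl39l had no tract that begins at the positions searched, although the window of Rpl39l holds a run of pyrimidines that begins farther upstream. Other motifs were searched on both strands of the whole promoter, from 250 bases before to 50 bases after the start. CCGGAAG, the core of ETS family motifs, was present in 40% of the members and 9.93% of all genes, and GGGCGG, the GC box, in 61.5% and 38.2%. AAGATGGC, the core of the YY1 motif, was present in 9.23% of the members and 3.19% of all genes, and TATAAA in 10.8% and 15.7%. GGGCGG and CCGGAAG can overlap only by the G or C letters at their edges, and no match was taken as a site.

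The share of counts in ribosomal protein genes lay within a narrow range in 7 of the 8 libraries. Large subunit genes held 0.953%, 1.35%, 1.36% and 1.23% of the counts in the 4 libraries of MKs cultured alone and 1.14%, 1.29%, 3.33% and 1.38% in cocultures 1 to 4. Small subunit genes held 0.996%, 1.53%, 1.5% and 1.25% in the MKs cultured alone and 1.19%, 1.31%, 3.19% and 1.30% in the cocultures. Coculture 3 was far above the others, and the remaining cocultures lay within the range of the MKs cultured alone, except the large subunit share of coculture 4, at 1.38% against at most 1.36%.

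**Figure D1:**
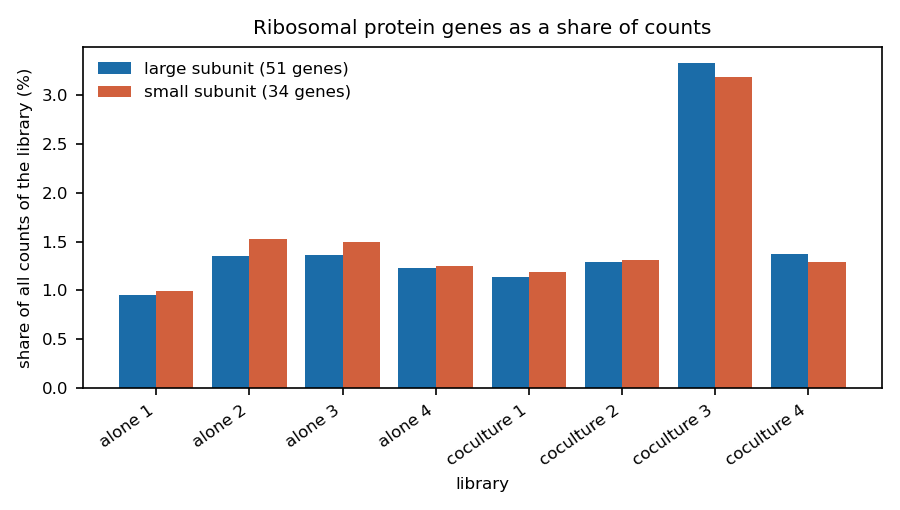
Share of all counts of a library (vertical axis, percent) that fell in the 51 large subunit genes (blue) and the 34 small subunit genes (orange), for the 4 libraries of MKs cultured alone and the 4 cocultures. Coculture 3 reached 3.33% and 3.19%, and the other libraries lay between 0.953% and 1.53%.

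Both subunits together took 2.54% ± 0.436 (SD, n = 4) of the counts in the MKs cultured alone, 3.53% ± 2.0 (SD, n = 4) in the cocultures and 2.53% ± 0.185 (SD, n = 3) without coculture 3. Thus the cocultures other than replicate 3 had about the same total of ribosomal protein messages as the MKs cultured alone, with a difference smaller than the spread between libraries. The ratio of large to small subunit counts was 0.932 ± 0.0437 (SD, n = 4) in the MKs cultured alone and 1.01 ± 0.0499 (SD, n = 4) in the cocultures, or 1.0 ± 0.0552 (SD, n = 3) without coculture 3. The ranges of this ratio overlapped, at 0.885 to 0.979 and 0.956 to 1.06.

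Within MKs cultured alone, the canonical genes differed widely in level. Per kilobase of spliced transcript, Rps29 (1602 CPM per kb) and Rps27 (1397) were highest in the small subunit and Rpl39 (990.3) and Rpl7 (908) in the large subunit. The lowest canonical gene per length was Rpl5 (6.32 CPM per kb), followed by Rpl12 (9.73). Rps12 was at 77.2 CPM per kb, although much of its signal was counted in a near-identical copy, as described further on. Among the paralogs, Rpl39l was at 0.261 CPM per kb and Rpl3l at 0.703.

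With all 8 libraries, few ribosomal protein genes passed the test, and all that passed were higher in the cocultures. Of the 50 large subunit genes tested, 4 were higher (Rpl39l, Rplp1, Rpl5 and Rpl38) and 0 were lower at an adjusted p of at most 0.05, by edgeR's quasi-likelihood test with Benjamini-Hochberg adjustment over 11722 genes. Of the 34 small subunit genes, 2 were higher (Rps27l and Rps2) and 0 were lower. Over all genes tested, 14.3% were called higher and 8.75% lower, against 8% and 0% of the large and 5.88% and 0% of the small subunit genes. At an unadjusted p under 0.05 there were 13 large and 5 small subunit genes higher and 0 lower in either subunit. All 6 genes that passed changed by at least 2-fold, a class that held 13.2% of all genes higher and 7.31% lower. This fit was the less precise one, with an SE of 0.44 for Rps6 against 0.18 without coculture 3, so a gene that did not pass is not shown to be equal in both groups. By values alone, 73 of the 84 members tested had a log2 fold change above 0, against 51.3% of all genes. The median was 0.92 in the large and 0.52 in the small subunit, against 0.034 over all genes.

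These medians rested on coculture 3. It was the highest of the 8 libraries for 83 of the 85 members, against 32.8% of all genes, with Rpl7l1 and Rpl3l as the exceptions. Compared with the mean of the other cocultures, its level was a median of 3.80 times higher over the members, and among the members with a count there it ran from 0.326 times (Rpl7l1) to 9.59 times (Rpl35). Rpl35 was at 26.5, 28.4, 50.9 and 63.1 CPM in the MKs cultured alone and at 39.6, 53.8, 549 and 78.2 CPM in cocultures 1 to 4. Its log2 fold change was 2.09 ± 0.85 (SE) with all libraries (adjusted p = 0.109) and 0.41 ± 0.29 without coculture 3 (adjusted p = 0.246). The rise in coculture 3 was thus shared by nearly every canonical gene of both subunits, but not by Rpl7l1, which was at 40.0 CPM there and at 109, 137 and 121 CPM in the other cocultures.

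**Figure D2:**
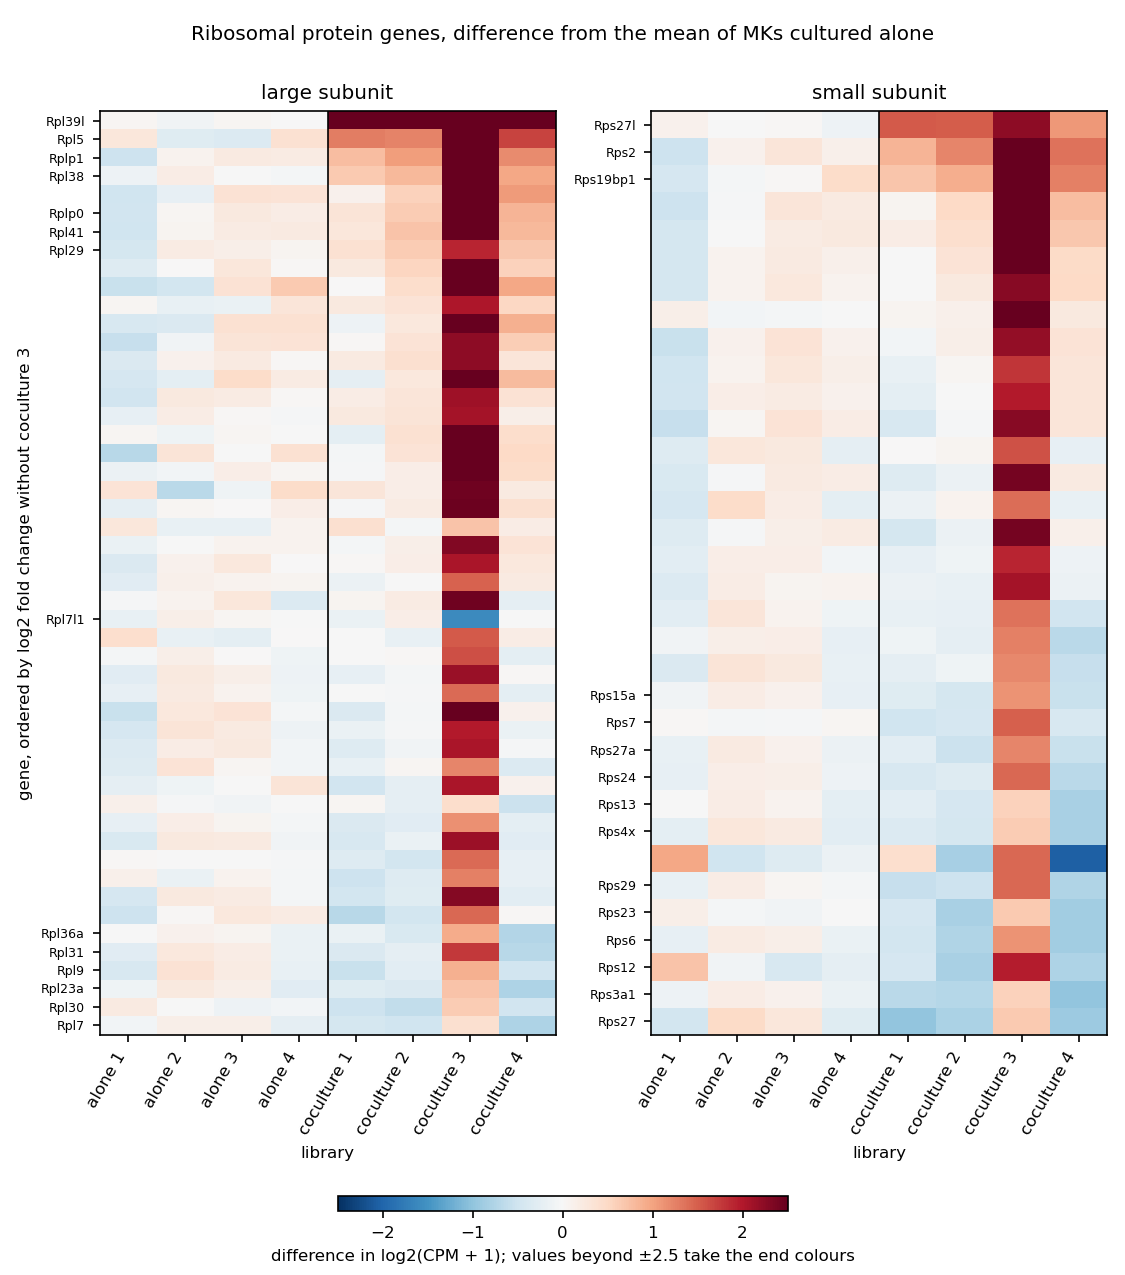
Difference of each gene from its mean in the MKs cultured alone, in log2(CPM + 1), for the 50 large subunit genes (left) and 34 small subunit genes (right) that were tested, with libraries in columns and genes in order of their fold change without coculture 3 (names are given for Rpl7l1 and for genes that passed without that library). Coculture 3 is red in every row except Rpl7l1, and the other cocultures are red at the top of each panel and blue at the bottom, where 6 large and 12 small subunit genes passed the test as lower.

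Without coculture 3, more members passed the test, some as higher and some as lower, and most passed in neither direction. Of the 50 large subunit genes, 7 were higher and 6 lower, and of the 34 small subunit genes, 3 were higher and 12 lower, by the same test over 12267 genes. Over all genes tested, 29.2% were called higher and 25.9% lower, beside which 14% of the large subunit genes were higher and 12% lower, and 8.82% of the small subunit genes were higher and 35.3% lower. The median log2 fold change was 0.059 in the large and -0.19 in the small subunit, against 0.030 over all genes. Relative to the median of all genes, the small subunit stood at -0.22, and at -0.19 to -0.34 under the 5 other settings run on these 7 libraries. The large subunit stood at 0.029 relative to all genes and at -0.062 to 0.054 under those settings, so it had no stable direction.

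Apart from Rpl39l, the changes without coculture 3 were within 3-fold. There were 4 members that passed with at least a 2-fold rise (Rpl39l, Rpl5, Rps27l and Rps2) and 0 with a 2-fold fall, against 20.6% and 15.4% of all genes. The 18 genes that fell had log2 fold changes from -0.98 (Rps27) to -0.44 (Rpl36a). The groups did not overlap for 11 members that were higher and 19 that were lower, in a setting where this held for 30.7% of all genes higher and 25.4% lower. The direction depended on coculture 3 for 38 members, which had a log2 fold change above 0 with it and below 0 without it, and 0 members went the other way. The 6 genes that passed with all libraries also passed, in the same direction, without coculture 3.

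**Figure D3:**
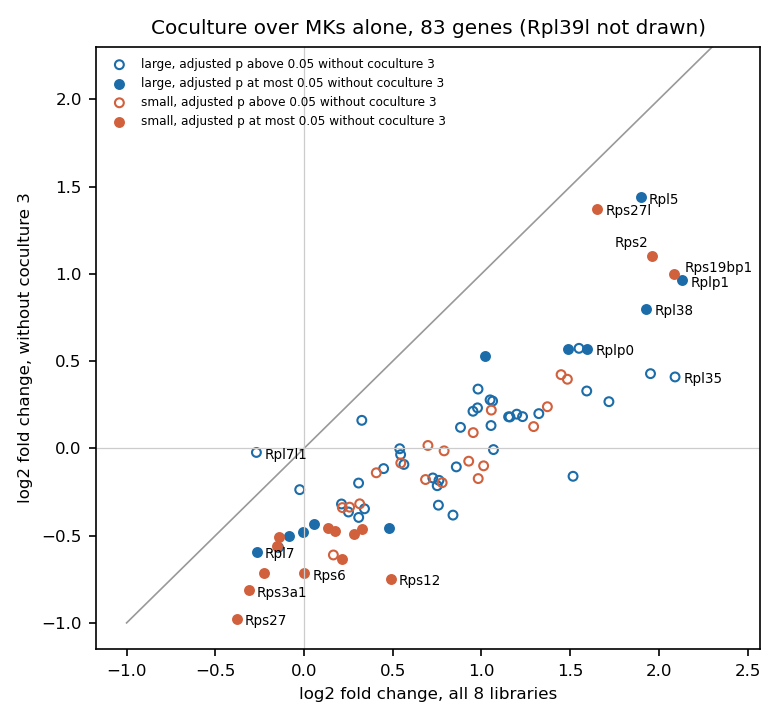
Log2 fold change of coculture over MKs alone with all 8 libraries (horizontal axis) and without coculture 3 (vertical axis) for 83 genes, with Rpl39l (7.64 and 7.43) not drawn. Filled points passed the test without coculture 3, the grey diagonal marks equal values, and 38 genes lie right of 0 and below 0, where the direction changed.

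Proteins of the large subunit are described first, by their place in the ribosome. The P stalk, formed by RPLP0, RPLP1 and RPLP2, recruits the elongation factors. Rplp1 was at 93.8, 143, 158 and 155 CPM in the MKs cultured alone and at 231, 278, 1591 and 307 CPM in cocultures 1 to 4. Every coculture was above every library of MKs cultured alone. Rplp1 rose with a log2 fold change of 2.13 ± 0.64 (SE) with all libraries (adjusted p = 0.0417) and 0.96 ± 0.19 without coculture 3 (adjusted p = 0.000507). Rplp0 was at 346, 499.6, 575 and 548 CPM in the MKs cultured alone and at 601, 751, 3716 and 875 CPM in cocultures 1 to 4, again without overlap. It passed only without coculture 3, where its log2 fold change was 0.57 ± 0.20 (adjusted p = 0.0235), against 1.59 ± 0.58 (adjusted p = 0.0799) with all libraries. Its call without coculture 3 was lost with the length correction (0.31 ± 0.19, adjusted p = 0.168). Rplp2, with 88.7, 112, 136 and 114 CPM in the MKs cultured alone and 133, 162, 1282 and 167 CPM in the cocultures, did not pass (log2 fold change 0.43 ± 0.18 without coculture 3, adjusted p = 0.0514).

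RPL5 and RPL11 enter the large subunit together with the smallest ribosomal RNA. Rpl5 (chr5:107900502-107909005) was at 15.4, 9.997, 9.65 and 16.6 CPM in the MKs cultured alone and at 32.0, 31.0, 86.8 and 42.5 CPM in cocultures 1 to 4. Every coculture was above every library of MKs cultured alone, and coculture 3 was highest. Its log2 fold change was 1.90 ± 0.43 (SE, adjusted p = 0.0143) with all libraries and 1.44 ± 0.25 (adjusted p = 0.000112) without coculture 3, a rise of 2.71-fold. Rpl11 was at 54.3, 48.3, 54.0 and 52.1 CPM in the MKs cultured alone and at 43.7, 68.3, 339.5 and 70.6 CPM in the cocultures. Coculture 1 was below and cocultures 2 and 4 above all MKs cultured alone, and Rpl11 did not pass in either fit (log2 fold change 0.20 ± 0.19 without coculture 3, adjusted p = 0.4). Rpl5 and Rpl11 therefore differed in their call, although the difference between the genes was not itself tested.

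Proteins that line or ring the exit of the nascent chain had few calls. Of 9 such genes (Rpl4, Rpl17, Rpl19, Rpl22, Rpl23a, Rpl26, Rpl31, Rpl35 and Rpl39), 0 passed with all libraries, and 0 were higher and 2 lower without coculture 3. The lower count is near the 25.9% of all genes called lower. It was 4 of 9 with a correction for GC content that is described further on, where 3993 of all 12259 genes were lower. Rpl23a was at 451, 579, 539.6 and 403 CPM in the MKs cultured alone and at 394, 378 and 287 CPM in cocultures 1, 2 and 4, below the MKs cultured alone in each case (log2 fold change -0.50 ± 0.19, adjusted p = 0.0322). Coculture 3, at 798 CPM, was above all of them, and with it the log2 fold change was -0.09. Rpl31 fell by the test without coculture 3 (log2 fold change -0.46 ± 0.19, adjusted p = 0.0494), but its groups overlapped, with 141, 207, 196 and 154 CPM in the MKs cultured alone and 133, 147 and 105 CPM in cocultures 1, 2 and 4. With coculture 3, at 585 CPM, the value turned to 0.48 and did not pass.

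The remaining large subunit genes that fell without coculture 3 were Rpl7 (-0.59), Rpl30 (-0.57), Rpl9 (-0.48) and Rpl36a (-0.44) on the log2 scale. Rpl7, the highest large subunit gene by mean CPM in the MKs cultured alone, was at 1002, 1166, 1159 and 898 CPM in the MKs cultured alone and at 770.2, 745 and 615 CPM in cocultures 1, 2 and 4. These groups did not overlap, and coculture 3 was higher than both, at 1379 CPM. Rpl30 was at 370.3, 314, 292 and 302 CPM in the MKs cultured alone and 221, 206 and 228 CPM in cocultures 1, 2 and 4, also without overlap, and at 497 CPM in coculture 3. Adjusted p without coculture 3 was 0.00991 for Rpl7 and 0.00768 for Rpl30.

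Rpl38 is known for patterning defects in mice that carry a mutation in it. The gene (chr11:114668524-114672331) was at 57.8, 71.8, 62.7 and 61.3 CPM in the MKs cultured alone and at 100.5, 112, 629 and 124 CPM in cocultures 1 to 4. All cocultures were above all MKs cultured alone, and coculture 3 was far above the other cocultures. Rpl38 rose with a log2 fold change of 1.93 ± 0.60 (SE) with all libraries (adjusted p = 0.0492) and 0.80 ± 0.17 without coculture 3 (adjusted p = 0.000668). Rpl41, the smallest ribosomal protein, and Rpl29 passed as higher only without coculture 3, at 0.57 and 0.53 on the log2 scale.

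In the small subunit, 7 proteins at the path of the messenger RNA were listed (Rps2, Rps3, Rps3a1, Rpsa, Rps14, Rps26 and Rps28). Of these, 1 was higher and 0 lower with all libraries, beside 14.3% and 8.75% of all genes. Without coculture 3, 1 was higher and 1 lower, beside 29.2% and 25.9% of all genes. With the GC correction described further on, 0 passed with all libraries. That correction gave 1 higher and 3 lower without coculture 3, where 3539 of all 12259 genes were higher and 3993 lower. Rps2, which lies where the messenger RNA enters (chr17:24718116-24721929), was at 357, 549, 635 and 557 CPM in the MKs cultured alone and at 927, 1197, 4746 and 1308 CPM in cocultures 1 to 4. Each coculture was above each library of MKs cultured alone. The log2 fold change of Rps2 was 1.96 ± 0.53 (SE, adjusted p = 0.028) with all libraries and 1.10 ± 0.21 (adjusted p = 0.000249) without coculture 3. Rps3a1 (chr3:86137940-86142702), the highest small subunit gene by mean CPM in the MKs cultured alone, went the other way. It was at 984, 1228, 1168 and 958 CPM in the MKs cultured alone and 673, 659 and 545 CPM in cocultures 1, 2 and 4, with no overlap (log2 fold change -0.81 ± 0.18, adjusted p = 0.00105). In coculture 3 it was at 1616 CPM, above every other library, and with that library the log2 fold change was -0.31 and did not pass. Rps3, Rpsa, Rps14, Rps26 and Rps28 had log2 fold changes between -0.18 (Rps28) and 0.40 (Rps26) without coculture 3 and did not pass.

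Most genes that fell without coculture 3 belonged to the small subunit. Rps27 (chr3:90212522-90213651) had the lowest log2 fold change of the members, with 336, 651, 564 and 377 CPM in the MKs cultured alone and 233, 267 and 246 CPM in cocultures 1, 2 and 4. All 3 cocultures were below all MKs cultured alone. The fall was 1.97-fold (log2 fold change -0.98 ± 0.22, adjusted p = 0.00138). Coculture 3, at 736 CPM, was the highest of the 8 libraries, and with it the log2 fold change was -0.38 and did not pass.

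RPS6, the target of the S6 kinases downstream of mTOR, showed the same arrangement. Rps6 (chr4:86854660-86857412) was at 601, 802, 771 and 620.5 CPM in the MKs cultured alone and at 504, 408 and 380.2 CPM in cocultures 1, 2 and 4, all below the MKs cultured alone, and at 1503 CPM in coculture 3. Its log2 fold change was -0.72 ± 0.18 without coculture 3 (adjusted p = 0.00338) and 0.00 ± 0.44 with it (adjusted p = 0.999), so that the library alone decided the call. Besides Rps27, Rps3a1 and Rps6, the genes Rps12 (-0.75), Rps23 (-0.71), Rps29 (-0.64), Rps4x (-0.56), Rps13 (-0.51), Rps24 (-0.49), Rps27a (-0.47), Rps7 (-0.46) and Rps15a (-0.46) fell without coculture 3, given as log2 fold changes. Each of the 12 had all 3 cocultures below all MKs cultured alone. With all libraries, 0 of them passed.

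Rps19bp1 was the remaining small subunit symbol that rose without coculture 3. It was low, with 4.86, 6.60, 6.99 and 9.76 CPM in the MKs cultured alone and 11.7, 13.8, 76.8 and 17.9 CPM in cocultures 1 to 4, and its groups did not overlap. The log2 fold change was 1.0 ± 0.29 without coculture 3 (adjusted p = 0.00826) and 2.09 ± 0.68 with it (adjusted p = 0.0561), so it passed only without that library. Among canonical small subunit genes alone, 1 of 31 was higher (Rps2) and 12 were lower without coculture 3.

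The largest difference among the members was that of a paralog. Rpl39l, a paralog of Rpl39 that is best known from the testis (chr16:10170226-10174911), had 1, 1, 2 and 1 counts in the MKs cultured alone and 343, 299, 499 and 151 counts in cocultures 1 to 4. In CPM these were 0.221, 0.103, 0.222 and 0.163 in the MKs cultured alone and 32.5, 38.9, 52.2 and 26.2 in the cocultures. Every library of MKs cultured alone was under the floor of 3 counts, and no coculture was near it. The gene's share of counts was 216 times higher in the cocultures, with an exact 95% interval of 92.4 to 667 that covers counting error only, and 207 times higher (88.5 to 640.3) without coculture 3. It passed the test with all libraries (adjusted p = 2.99e-05) and without coculture 3 (adjusted p = 1.15e-10). Rpl39 itself was at 657, 590.5, 572 and 605 CPM in the MKs cultured alone and 629.6, 516, 819.6 and 418 CPM in the cocultures and did not pass (log2 fold change -0.24 ± 0.18 without coculture 3, adjusted p = 0.272). Per length, Rpl39l made up 0.0264% ± 0.00832 (SD, n = 4) of both genes in the MKs cultured alone and 5.41% ± 0.787 (SD, n = 4) in the cocultures. Markers of other cells moved with the groups. Of the MSC markers tested without coculture 3, 9 of 11 were higher, Eng did not pass and Nt5e was lower, and 9 of 9 macrophage markers were higher. Within the cocultures, Rpl39l was highest in coculture 3, where the summed MSC markers were lowest (1178 CPM) and the summed macrophage markers highest (1421 CPM), and their part in the rise of Rpl39l was not tested.

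Rps27l, the paralog of Rps27 and a known transcriptional target of p53, rose while Rps27 fell. Rps27l (chr9:66946086-66949516) was at 217, 201, 208 and 186 CPM in the MKs cultured alone and at 589.7, 579, 955 and 435 CPM in cocultures 1 to 4. Every coculture held at least 435 CPM, and the MKs cultured alone held at most 217. The log2 fold change was 1.65 ± 0.25 (SE, adjusted p = 0.00193) with all libraries and 1.37 ± 0.17 (adjusted p = 3.49e-06) without coculture 3. Per length, Rps27l made up 22.3% ± 5.64 (SD, n = 4) of both genes in the MKs cultured alone, 54.7% ± 7.09 (SD, n = 4) in the cocultures and 57.7% ± 4.36 (SD, n = 3) without coculture 3. The order of both messages was thus turned in cocultures 1, 2 and 4, where Rps27l was the larger per length.

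**Figure D4:**
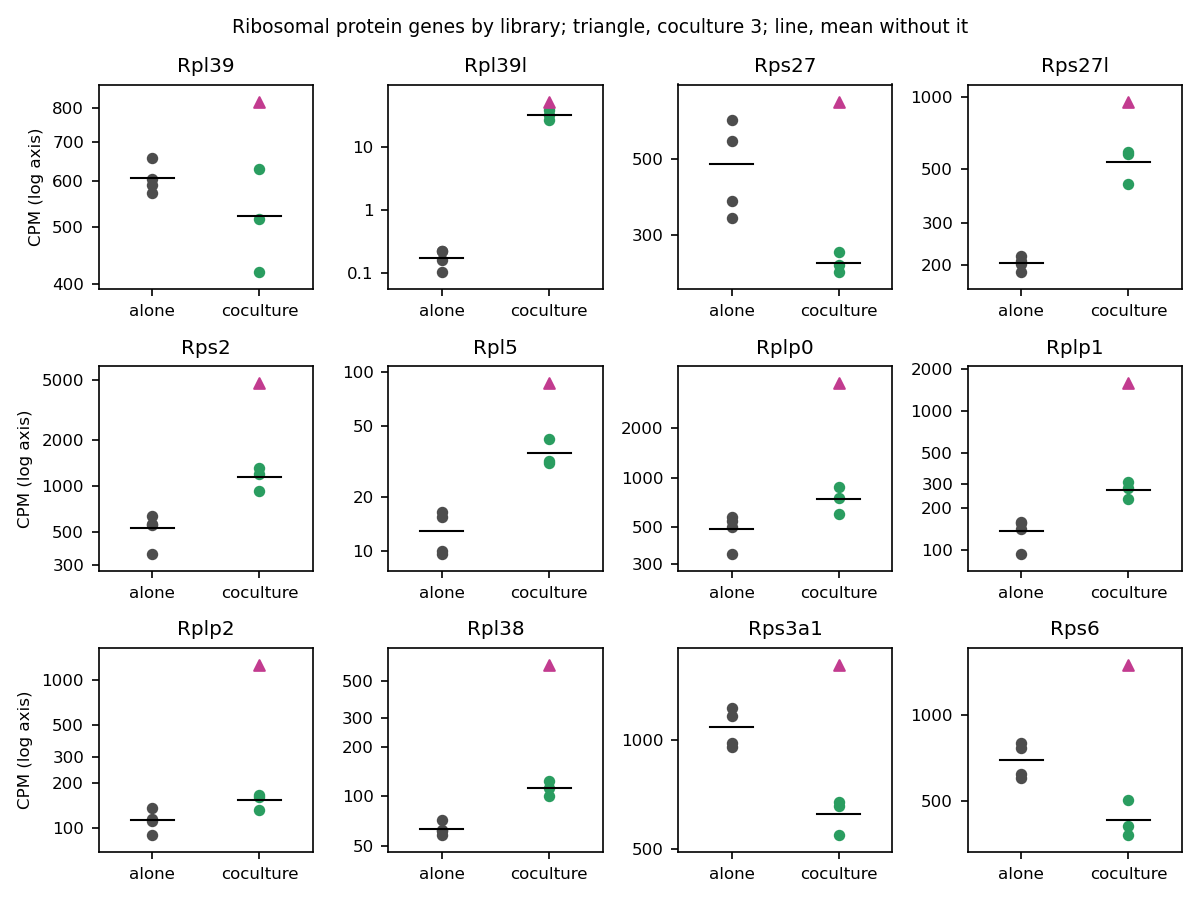
CPM on logarithmic axes of 12 genes in the 4 libraries of MKs cultured alone (grey) and in the cocultures (green, with coculture 3 as a magenta triangle), each panel with its own scale and black lines at the means without coculture 3. Rpl39l, Rps27l, Rps2, Rpl5, Rplp0, Rplp1 and Rpl38 have all cocultures above the MKs cultured alone, and Rps27, Rps3a1 and Rps6 have the green points below and the triangle above them.

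None of the other paralogs passed in either fit. Rpl36al made up 38% ± 2.36 (SD, n = 4) of Rpl36a and Rpl36al per length in the MKs cultured alone and 51.4% ± 5.30 (SD, n = 4) in the cocultures. Rpl36a fell without coculture 3 (log2 fold change -0.44 ± 0.18, adjusted p = 0.0457), and Rpl36al did not pass (0.21 ± 0.16, adjusted p = 0.276). Rpl22l1, the paralog of Rpl22, was the more abundant of its pair, with 86.3% ± 2.61 (SD, n = 4) of both per length in the MKs cultured alone and 85.5% ± 5.79 (SD, n = 4) in the cocultures. Neither gene of that pair passed in either fit (adjusted p without coculture 3 of 0.468 for Rpl22l1 and 0.659 for Rpl22). Rpl7l1 stayed at -0.02 on the log2 scale (adjusted p = 0.916). Rpl3l, the muscle paralog of Rpl3, had 5, 11, 3 and 5 counts in the MKs cultured alone and 0, 0, 0 and 2 in the cocultures, too few to pass the filter on low counts, so it was not tested.

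Several members share reads with near-identical copies, which the quantification could split. The row Rpl10-ps3 held 86.5% of the CPM of Rpl10 and that copy in the MKs cultured alone, Rps12-ps3 held 58.4% of the sum with Rps12, Rpl9-ps6 held 21.0% of the sum with Rpl9, and Rpl36a-ps1 held 0.303% of the sum with Rpl36a. Rpl10, Rps12 and Rpl9 are therefore uncertain as single genes. These genes were also summed with their copies, and mean log2(CPM + 1) in the MKs cultured alone was subtracted from that in cocultures 1, 2 and 4. The difference was -0.23 for Rpl10, -0.61 for Rps12 and -0.58 for Rpl9. Rps12 and Rpl9 were on average lower than in the MKs cultured alone on either reckoning, although for Rpl9 as a single row the groups overlapped. Rpl10 had a log2 fold change of 0.20 as a single row and did not pass. Rps27rt, an intronless copy of Rps27, was at 36.2, 12.6, 14.3 and 16.3 CPM in the MKs cultured alone and 24.5, 9.77 and 3.64 CPM in cocultures 1, 2 and 4, and did not pass (adjusted p = 0.372).

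Genes with roles beside the general ribosome were examined singly. Rps19, the gene most often mutated in Diamond-Blackfan anemia, was at 380.1, 586, 716 and 647 CPM in the MKs cultured alone and at 429.8, 558, 2747 and 697 CPM in cocultures 1 to 4. Apart from coculture 3, its groups overlapped, and it did not pass (log2 fold change -0.07 ± 0.22 without coculture 3, adjusted p = 0.796). Rpl10a, known from work on ribosome heterogeneity, Rpl13a, which can silence inflammatory messages outside the ribosome, and Rps25, needed by some viral internal ribosome entry sites, had log2 fold changes of -0.11 ± 0.17, -0.18 ± 0.18 and -0.34 ± 0.20 without coculture 3 and did not pass. Rpl10a and Rpl13a did pass as lower there with the corrections described further on. With that for GC content they were at -0.52 ± 0.12 (adjusted p = 0.00145) and -0.43 ± 0.11 (adjusted p = 0.00314). With that for transcript length, adjusted p was 0.0415 and 0.0264. Rps27a, made as a fusion with ubiquitin, fell without coculture 3 (log2 fold change -0.47 ± 0.18, adjusted p = 0.0309). Its level was 470.3, 625, 576 and 487 CPM in the MKs cultured alone, 449, 369 and 364 CPM in cocultures 1, 2 and 4 and 1255 CPM in coculture 3.

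Of 18 genes mutated in Diamond-Blackfan anemia, 1 was higher (Rpl5) and 0 lower with all libraries, and 1 was higher (Rpl5) and 5 lower (Rps7, Rps24, Rps27, Rps29 and Rpl31) without coculture 3, and the latter count was 8 with the GC correction. The uncorrected counts stand beside 14.3% of all genes higher and 8.75% lower with all libraries, and 29.2% and 25.9% without coculture 3. The corrected count stands beside 3993 of all 12259 genes lower. Their median log2 fold change was 0.71 with all libraries and -0.079 without coculture 3. Fau and Rack1, canonical genes that the rule did not take, did not pass in either fit. Without coculture 3 their log2 fold changes were -0.19 ± 0.22 and 0.10 ± 0.18, and in coculture 3 they were at 778 and 1601 CPM, against at most 191 and 467 CPM in the other libraries. Without that library, Fau passed as lower with the GC correction (-0.83 ± 0.11, adjusted p = 1.72e-05) and with the length correction (adjusted p = 0.0442). Rack1 passed with neither.

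Members with a higher GC content in their transcripts had higher fold changes. Across the 84 members tested, Spearman's rho between log2 fold change and GC content was 0.43 without coculture 3 and 0.48 with all libraries, and across all genes tested it was 0.23 and 0.28. These are descriptions across genes of the same libraries, which are not independent replicates. The libraries also differed among themselves within a group. Across the members, rho between a library's deviation from the gene's mean and GC content was -0.55, -0.40, -0.30 and -0.15 in the 4 libraries of MKs cultured alone and -0.32, 0.24, 0.53 and 0.48 in cocultures 1 to 4. Split by GC content into classes of 28 genes, the lowest class had 3 members higher and 9 lower without coculture 3 (median log2 fold change -0.33), the middle class 1 and 8 (median -0.11) and the highest class 6 and 1 (median 0.25). The 10 genes that rose had a median GC content of 55.4% and the 18 that fell 49.2%.

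**Figure D5:**
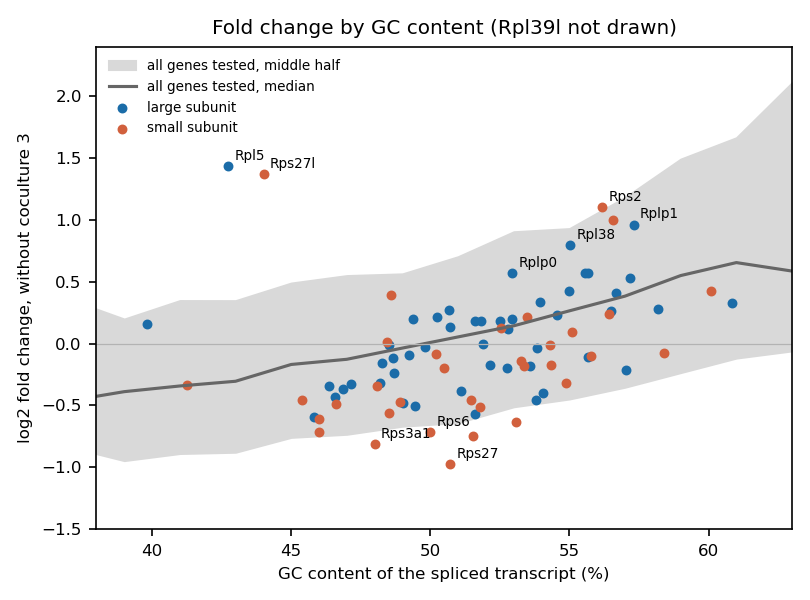
Log2 fold change without coculture 3 (vertical axis) against the GC content of the spliced transcript (horizontal axis, percent) for the large (blue) and small (orange) subunit genes, over the median (grey line) and the middle quartiles (grey band) of all genes tested, with Rpl39l (7.43) not drawn. Members rise with GC content as all genes do, with rho of 0.43 and 0.23, and Rpl5 and Rps27l lie far above the line while Rps27, Rps3a1 and Rps6 lie below it.

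A correction for GC content, added after the data were seen, moved many calls. Without coculture 3, corrected counts gave 6 large subunit genes higher and 16 lower, and 2 small subunit genes higher and 20 lower. Over all 12259 genes tested with this correction, 3539 were higher and 3993 lower, so part of the shift toward lower was shared by all genes. All 18 genes that had fallen also fell with the correction, and 7 of the 10 that had risen also rose. Rpl29, Rpl41 and Rps19bp1 no longer passed, with corrected log2 fold changes of -0.01 ± 0.11, 0.16 ± 0.11 and 0.52 ± 0.23 and adjusted p of 0.925, 0.225 and 0.065. Rps27 was at -1.07 ± 0.18 (adjusted p = 0.00015) and Rpl5 at 1.66 ± 0.21 (adjusted p = 7.79e-06) after the correction, close to their uncorrected values. Rps19 passed as lower only with the correction (-0.73 ± 0.11, adjusted p = 2.99e-05). With a correction for transcript length, 4 large subunit genes were higher and 19 lower, and 3 small subunit genes higher and 17 lower. Over all 12259 genes tested with it, 3066 were higher and 3940 lower. All 18 genes that had fallen also fell there, and Rpl29, Rpl41 and Rplp0 were the 3 of 10 that no longer rose. With all libraries, Rplp1, Rpl38 and Rps2 lost their calls with either correction, with adjusted p of 0.105, 0.106 and 0.0850 for GC content and 0.0703, 0.107 and 0.0540 for length.

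The promoter motifs were also counted by the direction of the genes, in numbers too small for a comparison. A TOP-like tract was present in 3 of the 8 matched genes that rose, 6 of the 13 that fell and 21 of the 43 that did not pass, without coculture 3. CCGGAAG was present in 5 of 8, 4 of 13 and 17 of 43 of these genes.

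Other genes of ribosome production and translation gave the following counts, with the same background shares. Counts with the GC correction without coculture 3 stand beside the counts over all genes given above for that correction. Among 9 elongation and termination factors, 4 were higher and 0 lower with all libraries, and 5 higher and 0 lower without coculture 3. Eef1d, part of the complex that recharges the elongation factor, was at 28.0, 44.7, 43.7 and 43.8 CPM in the MKs cultured alone and 73.5, 101, 459.8 and 100.3 CPM in cocultures 1 to 4 (log2 fold change 1.16 ± 0.20 without coculture 3, adjusted p = 0.000121). Eif5a, which relieves stalled ribosomes, had a log2 fold change of 0.87 ± 0.18 (adjusted p = 0.000561). With the GC correction, however, 0 of these 9 passed with all libraries, and 6 were higher and 2 lower without coculture 3. Among 29 initiation factors, 8 were higher and 3 lower without coculture 3, led by Eif4g1 (1.19 ± 0.17) and Eif3b (0.99 ± 0.19) on the log2 scale.

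Factors that build ribosomes also moved in both directions. Of 50 ribosome biogenesis genes, 5 were higher and 0 lower with all libraries and 12 higher and 3 lower without coculture 3, including Utp20 (1.41 ± 0.26) and Mrto4 (1.06 ± 0.20), an assembly factor that resembles Rplp0. Of 15 genes for RNA polymerase I and its factors, 0 were higher and 1 lower with all libraries and 5 higher and 3 lower without coculture 3. Twistnb, a polymerase I subunit, was at 259, 142, 143 and 166 CPM in the MKs cultured alone and 90.8, 77.1, 76.9 and 91.6 CPM in cocultures 1 to 4 (log2 fold change -1.06 ± 0.22, adjusted p = 0.000562). Of 16 genes that regulate TOP messages or transcription by MYC, 3 were higher and 4 lower without coculture 3. The lowest p-values were those of Mxi1 (-1.87 ± 0.20), a MYC antagonist, and Max (-1.28 ± 0.18), the partner of both. Of 17 genes listed as factors that meet the nascent chain, 0 were higher and 2 lower without coculture 3. That list also holds Nars and Tpt1, which are not such factors, and neither passed in that fit. With the GC correction, the counts higher and lower without coculture 3 were 11 and 6 for the initiation factors and 13 and 4 for biogenesis. They were 3 and 5 for RNA polymerase I, 2 and 5 for the regulators of TOP messages and MYC, and 3 and 4 for the nascent chain list. Of the biogenesis genes, 1 was higher with all libraries after this correction.

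The p53 response genes were listed because free RPL5 and RPL11 act on MDM2. All 10 were higher without coculture 3 and 8 of 10 with all libraries, and after the GC correction 8 and 7 of 10. Phlda3 was at 2.65, 4.43, 6.54 and 3.90 CPM in the MKs cultured alone and 117, 147, 215 and 171 CPM in cocultures 1 to 4, and Cdkn1a, the cell cycle inhibitor p21, at 44.4, 49.8, 52.8 and 45.6 CPM and 254, 285, 552 and 326 CPM. For both, every coculture was above every library of MKs cultured alone, with log2 fold changes of 4.97 ± 0.25 and 2.56 ± 0.17 without coculture 3 (adjusted p = 1.09e-10 and 2.02e-09). Mdm2 rose from 142, 99.8, 128 and 119.9 CPM to 330.2, 296, 178 and 326 CPM (log2 fold change 1.36 ± 0.17, adjusted p = 3.70e-06). Markers of MSCs and macrophages were also higher in these cocultures, and their part in the rise was not tested.

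Mitochondrial ribosomal proteins, which form a separate ribosome, are given beside the cytosolic ones. Of 78 such genes, 13 were higher and 0 lower with all libraries and 33 higher and 1 lower without coculture 3, with medians of 0.69 and 0.40. Over all genes, 14.3% were higher and 8.75% lower with all libraries, and 29.2% and 25.9% without coculture 3. The medians over all genes were 0.034 and 0.030. Cytosolic members had 10 higher and 18 lower of 84 without coculture 3, and the difference between the lists was not tested. Mitochondrial genes held 0.311% ± 0.0236 (SD, n = 4) of the counts in the MKs cultured alone against 0.423% ± 0.0260 (SD, n = 3) when coculture 3 was left out of the other group. Within that list rho between log2 fold change and GC content was 0.71 without coculture 3. The GC correction left 27 higher and 3 lower there, beside 3539 and 3993 of all 12259 genes. With all libraries it left 1 higher and 0 lower, beside 1179 and 635 of all 11714 genes.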

How the data were processed

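Bulk RNA-Seq of C57BL/6 murine MKs cultured alone (4 libraries) or with MSCs (4 libraries) was analyzed, with groups and replicate numbers taken from the labels. Small amounts of RNA were amplified as full-length cDNA (SMART-Seq HT) and sequenced in pairs of reads. Reads were filtered with fastp and assigned to mm10 transcripts with kallisto, and the authors deposited the resulting raw counts per gene as whole numbers, without normalization. How transcripts were summed and whether strand was used is not given in the sources used here, which leaves overlapping genes and nearly identical copies uncertain.

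The groups were compared by the quasi-likelihood F test of edgeR 4.0.16 (run under R 4.3.3) with its robust option, after filterByExpr and TMM scaling, and p-values were adjusted by Benjamini-Hochberg over all genes tested. No covariate was used, since the batches in the authors' own DESeq2 design are not named. Fits used all 8 libraries or 7 without coculture replicate 3. Genes passed at an adjusted p of at most 0.05, and "rose" or "fell" is written only of these. The standard error was taken from the log2 fold change and the F statistic. GC content and length were medians over GENCODE vM21 (GRCm38) transcripts, with a value for all 85 members. Counting intervals and floors of 3 counts cover counting error only, because reads carry no molecular identifiers. The test was checked on simulated counts.

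The members and gene lists were chosen with earlier results of these data known. Genes were named with values if they were in the lists of the P stalk, RPL5 and RPL11, exit tunnel, messenger RNA path and paralogs, if they were among the 4 largest rises or falls of a subunit that passed, if they had the highest or lowest mean CPM, or if they were known for other roles. Some genes that this rule takes are not reported here. Rpl35, Rpl12, Rpl29, Rpl41, Rps29, Rps23 and the other genes listed among the falls, and response and marker genes beyond those with the lowest p-values, were chosen after their values were seen. Alternatives were DESeq2 1.42.0, other scalings and filters, the replicate number as a block, corrections for length and GC content, and each library left out in turn.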

Additional observations from a re-analysis of the deposited data

Results flagged for a closer look

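Within each group of 4 libraries, a library was flagged when its gap to the nearest other library, divided by the range of the group, exceeded Dixon's 95% critical value. Of 102 groups examined, 21 were flagged, and 18 of the 21 were coculture replicate 3. Chance would flag about 5.1 if the groups were independent. They are genes and their sums in the same libraries, so that figure cannot be set against the count flagged. That library stood above the other cocultures in the share of counts held by large subunit genes (3.33%) and by small subunit genes (3.19%). On the log2(CPM + 1) scale it was flagged for Rplp1 (10.6) and Rplp2 (10.3) of the P stalk and for Rpl4 (10.6), Rpl19 (10.1), Rpl22 (8.0) and Rpl26 (10.2) at the exit tunnel. It was likewise flagged for Rpl38 (9.30), Rpl30 (8.96), Rpl10a (9.45), Rpl13a (10.2) and Rpl36al (9.35) of the large subunit. In the small subunit the flagged values were Rps28 (9.98), Rps27 (9.52), Rps12 (7.32) and Rps27a (10.3), and outside the rule Rack1 (10.6). Replicate 1 of the MKs cultured alone was flagged as low for Rpl3 (8.49) and Rack1 (8.20). Rpl3l was flagged in coculture 4 (0.43), the single coculture in which it had a count. In the same coculture 3, 1012 genes that had at least 10 counts in every other library were at 0.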

How the results depend on the processing

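With all 8 libraries, 4 large subunit genes were higher. This count was 2 with the GC content correction, 2 with the length correction, 1 with the length correction and replicate block, and 1 with the replicate block alone, and it ran from 1 to 7 when single libraries were left out. The 0 large subunit genes lower became 0 to 6 with single libraries left out. The 2 small subunit genes higher became 1 with the GC content correction and 1 with the length correction, with or without the block, and 1 to 3 with single libraries left out. The 0 small subunit genes lower became 1 with the length correction, with or without the block, and 0 to 12 with single libraries left out. Over all genes, 1673 higher and 1026 lower became 1179 and 635 with the GC content correction and 1226 and 689 with the length correction. They were 1177 and 683 with the block and 751 and 343 with length correction and block. With single libraries left out they ran from 1086 to 3588 higher and 580 to 3176 lower. The large subunit median of 0.92 was 0.25 with the length correction and block, 2.32 when scaled to MK and platelet markers, and 0.059 to 1.15 with single libraries left out. The small subunit median of 0.52 was 1.97 when scaled to the markers, -0.042 with the length correction and -0.19 to 0.80 with single libraries left out. Scaling to the markers also moved the median of all genes from 0.034 to 0.81 and the higher genes from 62.0% to 82.6% of those called.

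Without coculture 3, the 7 large subunit genes higher became 4 with the length correction and 15 with the replicate block. The 6 lower became 16 with the GC content correction, 19 with the length correction, 2 with library size only and 10 with the block. The 3 small subunit genes higher became 7 with the block, and the 12 lower became 20 with the GC content correction and 5 with library size only. Over all genes, 3588 higher and 3176 lower became 3539 and 3993 with the GC content correction and 3066 and 3940 with the length correction. They were 4055 and 2654 with library size only and 4067 and 3666 with the block. The large subunit median of 0.059 was -0.13, -0.20 and 0.19 with the GC content correction, the length correction and library size only. The small subunit median of -0.19 was -0.40, -0.48 and -0.058 under these, where the median of all genes was -0.083, -0.14 and 0.16 in place of 0.030. The cause of these shifts was not tested.

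The share of counts was 0.562 percentage points higher in the cocultures for the large subunit (0.046 to 0.778 with single libraries left out) and 0.425 for the small subunit (-0.055 to 0.611), and coculture 3 gave the low end of both. With single libraries left out, log2 fold changes ran from -0.46 to 0.78 for Rpl31, -0.44 to 0.30 for Rpl36a, -0.75 to 0.82 for Rps12, -0.72 to 0.26 for Rps6 and -0.47 to 0.41 for Rps27a, each low end being the value without coculture 3, where these genes passed as lower. Of the alternatives run for single genes with all libraries, 613 kept the call, 14 gained and 26 lost it and 5 reversed, and without coculture 3 these were 192, 33, 10 and 0. Of those that kept the call, 63 and 23 changed sign for genes that passed in neither setting. Deviations of same-numbered libraries correlated with r of 0.27, 0.01, 0.11 and 0.01, and those of differently numbered libraries with r from -0.199 to 0.081. Whether the replicate numbers mark a pairing was not tested. A call lost or gained under the block is therefore not read as a weaker or stronger effect. Depth limits Rpl39l in the MKs cultured alone, where 3 counts correspond to 0.324 to 0.607 CPM, and Rpl3l throughout.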
